A study of Mus musculus with 40 samples.

Results

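The 500 broadest H3K4me3 domains of mouse brown fat are described here, out of 14790 regions of chromosomes 1 to 19 that recurred across mice. Trimethylation of lysine 4 on histone H3 (H3K4me3) was mapped by chromatin immunoprecipitation and sequencing (ChIP-Seq) in brown fat taken from between the shoulder blades (iBAT) of wild type C57BL/6N mice aged 20 weeks. The design text of the series calls the tissue inguinal, while the sample labels and the methods of the study name iBAT. The same 8 animals were profiled for H3K27ac, H3K4me1 and H3K27me3, and each list of peaks was called against the input of the same animal. All mice ate chow to 8 weeks of age. Mice 1 and 2 stayed on the normal chow diet (NCD) in the warm, mice 4 and 5 stayed on NCD and were held at 4 °C for 24 h, mice 7 and 8 ate a high-fat diet (HFD) for 12 weeks in the warm, and mice 10 and 11 had the same HFD followed by 24 h at 4 °C. Warm here means housing at what the paper calls room temperature, which is not thermoneutrality. No mouse carried an engineered allele. Whole tissue was used, so fewer cells of a type and less of a mark per cell cannot be told apart.

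H3K4me3 is laid down by SET1 and MLL methyltransferases at the start sites of active and poised genes and usually forms a short block around the start. At a minority of genes the block spreads over several kilobases, mostly into the gene body, and such broad domains are known for marking genes tied to the identity of a cell type as well as widely used regulators. H3K27ac marks active promoters and enhancers, H3K4me1 marks enhancers and the flanks of promoters, and H3K27me3 is the mark left by Polycomb repressor complexes.

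Domains were chosen on their measured width. Peaks of the 8 H3K4me3 lists were merged, regions with a peak in at least 6 lists were kept, and the bases covered by the peaks of each list were counted. The 500 regions with the largest median over the 8 mice are the domains. Their width is therefore the basis of the choice and is given without a test. The median domain had 4157 covered bp, against 1279.5 bp for the 14290 remaining regions. The widest had 10570 bp, and 119 domains exceeded 5000 bp. The last domains taken were those of Ube2d3, a ubiquitin-conjugating enzyme, and of Cpsf4 with Ptcd1, all at 3409.5 bp. Just outside stood Cox5a, a subunit of cytochrome c oxidase, with 3409.0 bp and Pank1, a kinase of coenzyme A synthesis, with 3408.5 bp. The limit of 500 thus lay on a smooth slope and not at a step. Together the domains spanned 2.95 Mb, or 0.120% of the 19 autosomes.

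**Figure D1:**
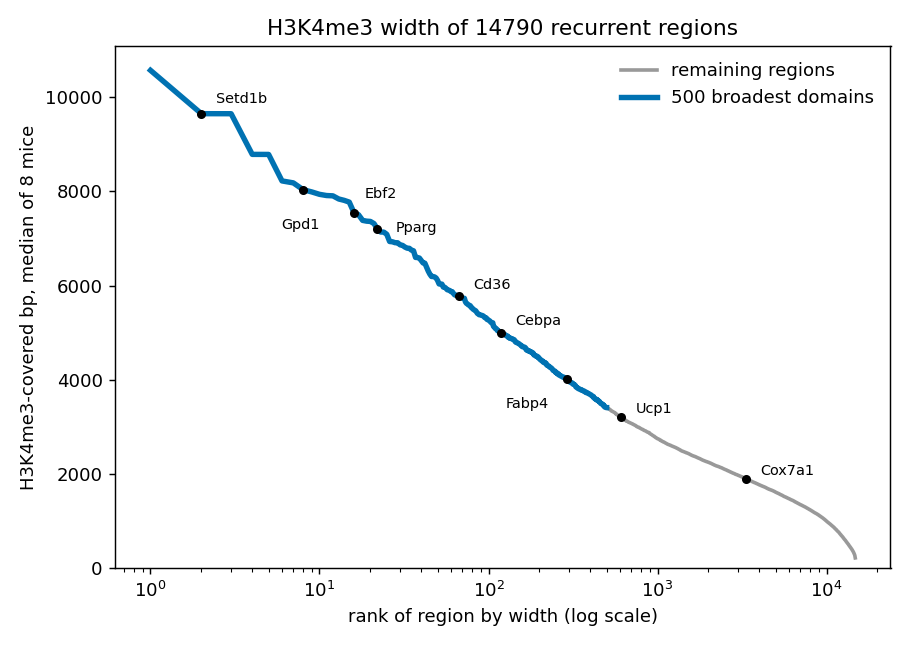
H3K4me3-covered bases (median of 8 mice, bp) against the rank of each of the 14790 recurrent regions on a log axis, with the 500 domains in blue and the rest in grey. The domains run from 10570 to 3409.5 bp, Ebf2 and Pparg sit near the top, and Ucp1 lies just outside at 3212.5 bp.

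Promoter sequence is shown for the 4 broadest domains that hold a protein-coding start site, for Ucp1, the uncoupling protein of brown fat, and for H6pd, an enzyme of the endoplasmic reticulum whose region had the middle rank among the remaining protein-coding regions. Each run holds the 250 bases before and the 50 from the start site, 5′ to 3′ on the strand of the gene, read from GRCm38. Capitals mark CpG dinucleotides, the substrate of DNA methylation and the feature that recruits H3K4 methyltransferases through CXXC proteins. Tnrc18 (chr5:142817613-142817912, minus strand, 21 CpG), Setd1b (chr5:123141943-123142242, plus strand, 19 CpG), Ppp2r5a (chr1:191396992-191397291, minus strand, 25 CpG), Zfp503 (chr14:21989552-21989851, minus strand, 19 CpG), Ucp1 (chr8:83290102-83290401, plus strand, 15 CpG) and H6pd (chr4:150008974-150009273, minus strand, 25 CpG) read as follows.
Tnrc18: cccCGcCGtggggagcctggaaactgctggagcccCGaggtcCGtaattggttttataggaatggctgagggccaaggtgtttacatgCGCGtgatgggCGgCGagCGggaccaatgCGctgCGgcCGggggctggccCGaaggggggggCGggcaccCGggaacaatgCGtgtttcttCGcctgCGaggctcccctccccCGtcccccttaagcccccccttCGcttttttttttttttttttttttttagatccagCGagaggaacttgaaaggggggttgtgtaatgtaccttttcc
Setd1b: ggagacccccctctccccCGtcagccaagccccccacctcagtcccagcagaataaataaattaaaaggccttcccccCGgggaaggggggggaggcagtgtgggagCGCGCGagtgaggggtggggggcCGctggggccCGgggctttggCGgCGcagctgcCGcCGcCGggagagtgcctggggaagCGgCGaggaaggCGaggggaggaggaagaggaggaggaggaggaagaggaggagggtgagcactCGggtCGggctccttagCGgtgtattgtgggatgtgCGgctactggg
Ppp2r5a: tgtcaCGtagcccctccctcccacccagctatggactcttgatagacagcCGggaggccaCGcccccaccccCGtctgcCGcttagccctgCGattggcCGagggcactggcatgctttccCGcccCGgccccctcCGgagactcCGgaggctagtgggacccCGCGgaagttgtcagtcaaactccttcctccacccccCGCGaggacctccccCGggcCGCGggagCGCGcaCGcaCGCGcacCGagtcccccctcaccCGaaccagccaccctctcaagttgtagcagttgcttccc
Zfp503: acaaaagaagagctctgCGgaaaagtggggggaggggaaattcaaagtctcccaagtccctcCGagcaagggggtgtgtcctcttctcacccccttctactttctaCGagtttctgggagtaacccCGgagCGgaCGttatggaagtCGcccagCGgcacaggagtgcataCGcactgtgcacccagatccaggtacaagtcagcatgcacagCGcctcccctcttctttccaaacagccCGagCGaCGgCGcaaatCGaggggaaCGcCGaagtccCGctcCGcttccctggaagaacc
Ucp1: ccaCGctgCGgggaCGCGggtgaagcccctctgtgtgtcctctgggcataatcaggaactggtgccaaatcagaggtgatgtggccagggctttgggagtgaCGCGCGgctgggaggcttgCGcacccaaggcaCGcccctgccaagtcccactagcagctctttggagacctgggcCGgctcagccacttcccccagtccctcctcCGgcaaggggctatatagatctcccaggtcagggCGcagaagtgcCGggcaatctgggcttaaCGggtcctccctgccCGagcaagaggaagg
H6pd: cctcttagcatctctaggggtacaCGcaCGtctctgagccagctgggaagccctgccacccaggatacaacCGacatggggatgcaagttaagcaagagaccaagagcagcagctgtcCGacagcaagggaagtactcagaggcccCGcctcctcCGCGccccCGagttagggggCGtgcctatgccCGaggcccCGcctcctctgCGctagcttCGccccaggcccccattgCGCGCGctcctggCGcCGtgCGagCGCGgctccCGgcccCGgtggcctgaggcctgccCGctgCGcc

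Promoters in the domains had a CpG density close to that of other active promoters. Over the 471 domains with a protein-coding start site the median was 24.0 CpG in 300 bases, with quartiles of 15.0 and 32.0. The 10822 promoters of the other start-site regions had a median of 23.0. CpG-poor promoters, with 5 or fewer CpG in the 300 bases, made up 6.79% of the domains (32 of 471), 4.67% of the next 500 regions by width and 3.79% of all others. Within 500 bp of the H3K4me3 core position, the median over mice of the strongest point of the peaks, the domains held 6.79 CpG per 100 bp, against 7.39 in the next 500 and 6.59 in the other start-site regions. Among the 20 broadest domains the cores of Egfl7 (1.30 CpG per 100 bp), Malat1 (1.90), Gpd1 (2.40), Ppara (2.50), Neat1 (2.70) and Lipe (2.80) were poor in CpG, while those of Zfp503 (9.99), Tnrc18 (8.49) and Acsl1 (8.19) were rich.

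Before the domains are compared between mice, the spread between lists has to be named. Mouse 7 stood apart. Its H3K4me3 list had 13155 peaks on chromosomes 1 to 19 against 16690 to 23405 in the others, and its H3K27ac list had 3207 against 14369 to 39953. The H3K4me1 lists of mice 1, 7 and 10 held 588, 7 and 12 peaks, and those of the other mice 7720 to 27533. H3K27me3 peaks were few, from 16 to 1378, except in mouse 5 with 6407. Read depths are not part of the peak lists, so a missing peak in these libraries is not evidence that the mark was absent. Where values without mice 7 and 10 were computed they are given beside the result or with the alternatives.

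In single mice the median covered length of the 500 domains was 4418 and 4550 bp in the warm NCD mice 1 and 2, 3742 and 4116.5 bp in the cold NCD mice 4 and 5, 2207 and 4200.5 bp in the warm HFD mice 7 and 8, and 3729 and 5195 bp in the cold HFD mice 10 and 11. Mouse 7 was lowest and mouse 11 highest. Both warm NCD mice lay above the cold NCD and the warm HFD mice, and the cold HFD mice spanned a range that takes in all but mouse 7. Mouse 7 had the fewest covered bases in 399 domains and mouse 11 the most in 353. Within a domain the coefficient of variation over the 8 mice had a median of 29.1%, and 17.6% without mouse 7. A peak was present in all 8 lists in 469 domains, in 7 lists in 30 and in 6 lists in 1.

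How far the choice depends on single animals was seen by ranking each mouse on its own. Of the 500 regions that were broadest over the other 7 mice, between 272 (mouse 7, 54.4%) and 421 (mice 1 and 2, 84.2%) were also among the 500 broadest of the mouse left aside. In that mouse they covered a median of 2236 bp (mouse 7) to 5166 bp (mouse 11), and the remaining regions 481 to 1574 bp. The domain list itself kept 469 to 479 members when any 1 mouse was left out, and 129 domains were in the top 500 of every mouse. A domain was seldom 1 unbroken peak in all animals: the share called as a single peak ran from 29.2% in mouse 7 to 76.6% in mouse 11.

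The broadest domain covered Tnrc18, which encodes a nuclear protein with a trinucleotide repeat, at chr5:142812768-142824114. It had 10368 and 10772 bp in warm NCD, 11301 and 11187 bp in cold NCD, 4263 and 9828 bp in warm HFD, and 9393 and 11075 bp in cold HFD. Apart from mouse 7 the 7 mice lay close together. Second was Setd1b, itself an H3K4 methyltransferase of the SET1 family, at chr5:123134544-123145210. Its 8 values were 9987, 9944, 9529, 10133, 1019, 9015, 8878 and 9770 bp in mouse order, so that mouse 7 alone was far below the rest. The next was Neat1, the long noncoding RNA (lncRNA) that builds paraspeckles, at chr19:5839403-5850887, with 7978 to 10921 bp in 7 mice and 4369 bp in mouse 7. Malat1, the neighbouring nuclear lncRNA, had a domain of its own at rank 18, with 5076 to 8277 bp.

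**Figure D2:**
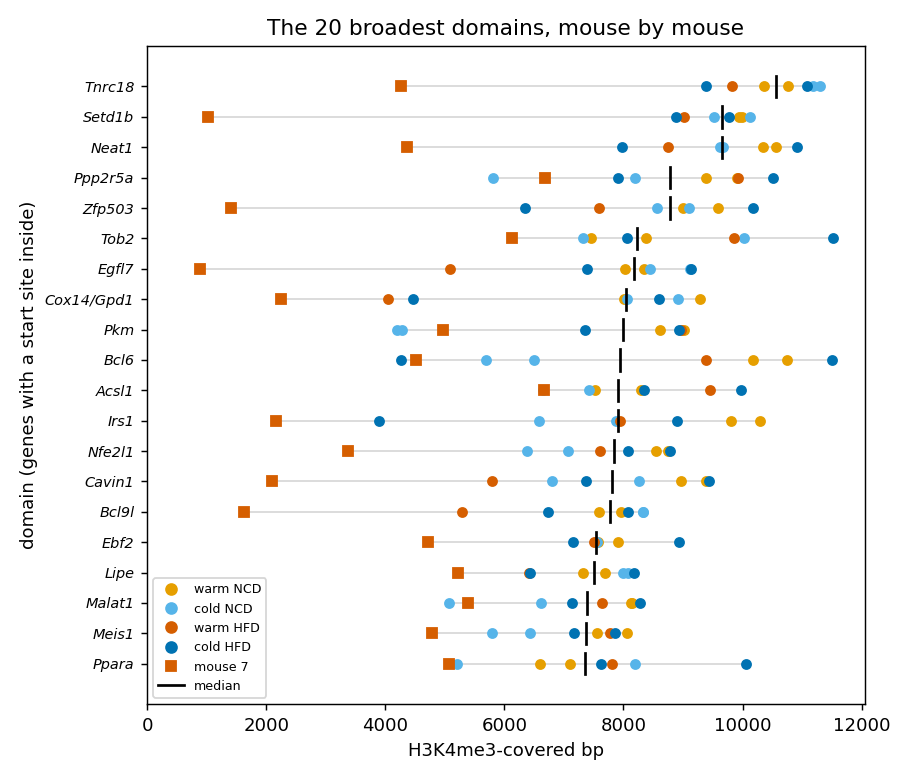
H3K4me3-covered bp in each of the 8 mice for the 20 broadest domains, one row per domain, coloured by condition with mouse 7 as a square and the median as a black bar. Mouse 7 is the lowest or near the lowest in most rows, as in Setd1b with 1019 bp, and in some rows the other mice are also far apart, as in Bcl6 with 4258 to 11506 bp.

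Several of the 20 broadest domains lay on genes of fat cell metabolism and insulin action. Gpd1, which makes glycerol 3-phosphate for triglycerides, shared a domain (chr15:99716121-99727190) with Cox14, an assembly factor of cytochrome c oxidase. It covered 8014, 9291, 8058 and 8916 bp in the NCD mice 1, 2, 4 and 5, and 2255, 4041, 4463 and 8601 bp in the HFD mice 7, 8, 10 and 11. The HFD mice 7, 8 and 10 lay below all NCD mice and mouse 11 did not. Acsl1, which activates fatty acids, had 6643 to 9981 bp. Irs1, the insulin receptor substrate, had 2162 bp in mouse 7 and 3894 to 10298 bp elsewhere. Lipe, hormone-sensitive lipase, had 5214 to 8173 bp, and Pkm, pyruvate kinase, had 4203 to 9013 bp. Cavin1, which shapes caveolae, had 2105 to 9431 bp.

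The remaining entries among the 20 broadest were mostly regulators. Ebf2, a transcription factor that specifies brown fat, covered 7581 and 7908 bp in warm NCD, 7549 and 7545 bp in cold NCD, 4726 and 7514 bp in warm HFD, and 7154 and 8940 bp in cold HFD. Ppara, a nuclear receptor of fatty acid oxidation, had 5062 to 10053 bp. Bcl6, a transcriptional repressor, had 4258 to 11506 bp, the 2 extremes being the cold HFD mice 10 and 11. Nfe2l1, which controls proteasome genes, had 3377 to 8782 bp, and Meis1, a homeobox factor, had 4777 to 8061 bp. Zfp503, a zinc finger repressor, had 1417 to 10171 bp, and Tob2, an antiproliferative protein, 6124 to 11520 bp. Ppp2r5a, a regulatory subunit of protein phosphatase 2A, had 5813 to 10510 bp, and Bcl9l, a coactivator of Wnt signalling, 1630 to 8335 bp. Egfl7, a secreted factor of endothelial cells that hosts Mir126a and Mir126b, had 887 bp in mouse 7 and 5085 to 9133 bp in the others.

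An annotated start site (GENCODE M21) lay in 485 of the 500 domains (97.0%), and a protein-coding one in 471 (94.2%), against 80.0% and 75.7% of the remaining regions. The comparisons of annotation that follow are with the 11425 remaining regions that also hold a start site. Domains held more than 1 gene in 39.4% of cases against 23.8%, noncoding start sites in 30.4% against 19.1%, and protein-coding start sites on both strands in 11.6% (58 domains) against 8.82%. Longer regions have more room for start sites, and in the next 500 regions by width the values were 36.2%, 22.2% and 16.4%. Histone marks carry no strand, so genes that share a domain cannot be told apart. MicroRNA genes started in 21 domains. Of the bases in domains 23.1% were exonic, 62.5% intronic and 14.3% outside genes, and in the other start-site regions 25.3%, 55.5% and 19.2%.

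H3K4me3 spread mainly into the gene. In domains with 1 protein-coding gene, the share of covered bases downstream of the start site was 75.3% and 75.7% in mice 1 and 2, 72.3% and 74.8% in mice 4 and 5, 89.7% and 76.7% in mice 7 and 8, and 79.0% and 76.4% in mice 10 and 11. The other start-site regions had 64.7% to 82.2%, with mouse 7 again highest. The domain value was higher in 8 of 8 mice, by 8.77 points on average (77.5% ± 5.27 against 68.7% ± 5.84, SD, n = 8), by 9.14 points without mice 7 and 10, and by 6.92 points against the next 500 regions. Since the same peaks chose the domains, this is given as a description. At 3000 bp downstream 51.4% ± 15.9 (SD, n = 8) of the domains were still covered, against 14.0% ± 9.63 of the next 500 and 1.81% ± 1.16 of the others. At 2000 bp upstream it was 20.0% ± 6.89 of the domains, against 7.01% ± 2.35 of the next 500 and 1.61% ± 0.564 of the others. Tnrc18 and Setd1b went against this pattern, with medians of 43.3% and 25.9% of the cover downstream.

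**Figure D3:**
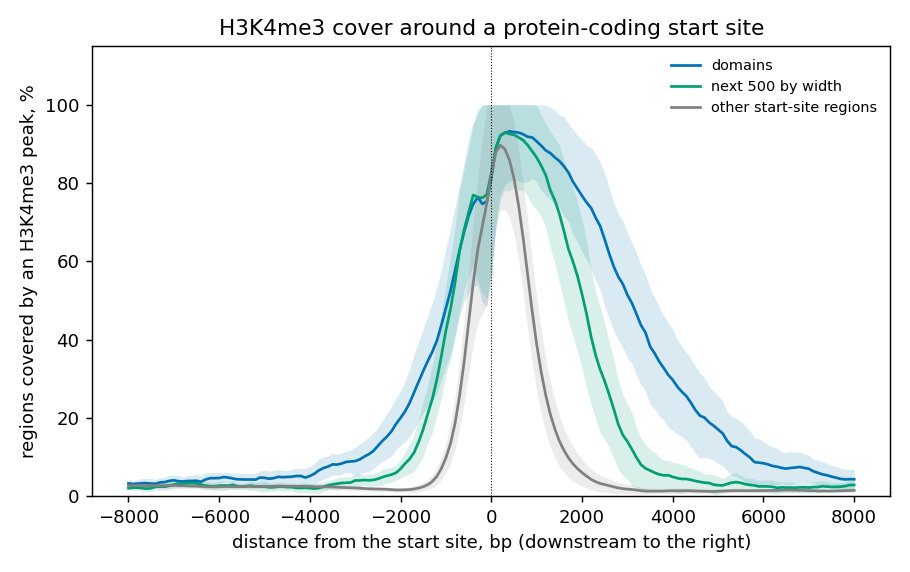
Share of regions with 1 protein-coding gene whose bases are covered by an H3K4me3 peak (%), by distance from the start site in bp, for the domains, the next 500 regions and the other start-site regions; lines are means and bands SD over 8 mice, cut at 100%. The domain curve lies above the others on both sides away from the start, at 20.0% at 2000 bp upstream and 51.4% at 3000 bp downstream.

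15 domains held no start site of the basic annotation. The widest lay in Acaca, acetyl-CoA carboxylase of fatty acid synthesis (chr11:84173286-84182604), 164 bp from a basic start site and over a further Acaca start of the full annotation. Others lay inside Srebf1, the regulator of lipid synthesis genes, in Tns1 (2 domains), in Lncppara and Qk, beside Kdm6b, an H3K27 demethylase, and 458 bp from a start site of Prdm16, a coregulator that directs brown fat fate. In the last of these, mouse 7 had no peak and the 7 other mice had 3031 to 4592 bp. The full annotation also had a start in the Srebf1 domain, in the Tns1 domain at rank 151 and in a domain at Chpt1. Acsl1, Cd36, Cpeb3, Gse1, Lipe and Tcf4 each had 2 separate domains. Of all domains, 40 lay within 50000 bp of another.

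The genes in the domains were counted by groups. A start site in a domain was found for 730 of the 14648 genes with one in any recurrent region, which is 4.98%, and this is the background for every count below. Among protein-coding genes it was 539 of 12093 (4.46%). The lists and the domains were drawn up with earlier results of these data known, so the shares are descriptions.

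Lipid storage and uptake had the largest share among the lists. Of its 24 genes, all with a recurrent region, 16 lay in domains (66.7%), and their regions had a median of 4324.5 bp. Beside Gpd1, Acsl1 and Lipe these were Plin2 and Plin1, which coat lipid droplets, Cidec, which fuses them, Lpin1, Agpat2, Dgat1 and Dgat2 of triglyceride synthesis, Cd36 and Lpl of fatty acid uptake, Angptl4, an inhibitor of Lpl, Fabp4, a fatty acid carrier, and the lipases Pnpla2 and Mgll. Plin2 reached 6598.5 bp and Dgat2 5591.5 bp, while Pnpla2 with 3458.5 bp was near the limit. Plin4, Plin5, G0s2, Abhd5, Bscl2, Fabp5, Gpihbp1 and Acsl5 lay outside, the widest being Acsl5 with 3068.0 bp. Of the 11 genes of de novo lipogenesis with a recurrent region 6 were in domains (54.5%), namely Acacb (5965.5 bp), Fasn (5624.0 bp), Acly (4349.5 bp), Scd1 (3819.0 bp), Elovl6 (3766.0 bp) and Thrsp (3423.0 bp).

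Of 33 adipocyte transcription factors with a recurrent region, 18 lay in domains (54.5%). Pparg, the master regulator of fat cells, covered 7131 and 7471 bp in warm NCD, 4182 and 6416 bp in cold NCD, 6327 and 7825 bp in warm HFD, and 7278 and 9039 bp in cold HFD. Cebpa and Cebpb, its partners in adipogenesis, had medians of 5001.0 and 4880.0 bp, and Ebf3 and Ebf1, relatives of Ebf2, 7089.5 and 5524.5 bp. Ppargc1b (6193.5 bp) and Ppargc1a (3976.0 bp), coactivators of mitochondrial genes, were both present, as were Zfp516, Nfia, Zfp423, Klf9, Klf4, Foxo1, Tle3, Thra, Bcl6 and Ppara. Prdm16 at its main start (2625.5 bp) and Cebpd (2688.5 bp) fell short.

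Of 18 thermogenic genes with a recurrent region, 5 lay in domains (27.8%). They were Adrb1 (6481.5 bp) and Adrb3 (4096.0 bp), the beta-adrenergic receptors through which cold acts on brown fat, Fabp3 (4776.5 bp), Elovl3, an elongase of fatty acids (4256.0 bp), and Cpt1b, which brings fatty acids into mitochondria (3582.0 bp). Ucp1 ranked 609 with 3212.5 bp. Its covered length was 3960 and 3030 bp in warm NCD, 4072 and 3119 bp in cold NCD, 2218 and 3306 bp in warm HFD, and 2240 and 5104 bp in cold HFD, so the cold and the warm mice overlapped. Cidea, a lipid droplet protein of brown fat, was also just outside with 3329.5 bp, and Dio2, which activates thyroid hormone (1992.5 bp), and the cytochrome c oxidase subunits Cox7a1 (1902.0 bp) and Cox8b (1725.5 bp) were narrower.

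The label of brown fat was checked with marker genes. None was chosen to separate interscapular from inguinal fat, so that difference in the labels was not tested. All 8 defining markers of brown adipocytes (Ucp1, Cidea, Prdm16, Ebf2, Cox7a1, Cox8b, Elovl3 and Dio2) had a recurrent H3K4me3 region, and only Ebf2 and Elovl3 reached the domains. Alb, Apoa1, Ttr, Ins2, Gcg, Sftpc, Myh6 and Nphs1, markers of tissues that should be absent, had none. Skeletal muscle had 1 of 14 markers in a recurrent region, Schwann cells and neurons 1 of 8, fibroblasts and preadipocytes 5 of 11, and macrophages 2 of 14. Endothelial markers were in a recurrent region for 18 of 18 genes, and 6 of them (33.3%) were in domains: Egfl7, Eng (4808.5 bp), a coreceptor of TGF-beta signalling, Esam (4392.5 bp), a junction protein, Sox7 (4033.0 bp) and Fli1 (3795.5 bp), transcription factors, and Kdr (3563.0 bp), the main receptor of Vegfa. In mouse 7, Sox7 and Fli1 had no peak.

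Signal-responsive regulators made up another group. Of 24 immediate early genes 12 were in domains (50.0%), from Fosl2 (5730.0 bp) and Ier2 (5341.0 bp) to Egr1 (3471.5 bp), with Nr4a3, Zfp36, Klf6, Junb, Myc, Jun, Klf2, Dusp1 and Nr4a2 between them. Of 19 circadian genes 7 were in domains (36.8%): Bhlhe40 (6032.0 bp), Per1 (5104.5 bp), Nfil3 (4943.0 bp), Nr1d1 (4036.5 bp), Dbp (4016.0 bp), Bhlhe41 (3653.0 bp) and Cry2 (3497.0 bp). Insulin signalling had 6 of 18 (33.3%), with Irs2 (4979.5 bp), Gsk3b, Slc2a4, the insulin-regulated glucose transporter (4502.0 bp), Foxo3 and Igf1r beside Irs1. Secreted factors had 2 of 8, Vegfa (6584.5 bp) and Nrg4 (3560.5 bp), while Adipoq lay just outside with 3394.0 bp. Krueppel-like factors had 7 of 14 (50.0%), with Klf9 the widest at 5044.0 bp.

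Ribosomal protein genes were below the background of 4.98% in the domains, and respiratory chain genes were close to it. Only Rpl18 of 78 cytosolic ribosomal protein genes (1.28%), Mrps18b of 78 mitochondrial ribosomal protein genes (1.28%), and Uqcrh, Sdhd and Atp5a1 of 76 respiratory chain genes (3.95%) had a start site in a domain. Their recurrent regions had medians of 1871.8, 1466.8 and 2058.5 bp. Chromatin regulators had 5 of 36 (13.9%), namely Setd1b, Brd2, a bromodomain protein (6936.0 bp), Chd4, Arid1a and Arid1b. None of 21 Hox genes was in a domain, and 9 of 340 Zfp genes were (2.65%), led by Zfp503 and Zfp36l1 (6911.0 bp). Of the genes the study dealt with, Actb was in a domain (3522.5 bp), Camk2d had 2679.0 bp and the lncRNA Ctcflos 1263.0 bp. Gm15551, Lep and H19 had no start site in a recurrent region. Such a region needed a peak in at least 6 lists, so H3K4me3 need not be absent there. At the Gm15551 locus the paper reports more H3K4me3 than H3K4me1.

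H3K27ac, which had no part in the choice, was tested within 500 bp of the core position of each region so that length did not enter. The share of domains with an H3K27ac peak there was 92.4% and 98.2% in warm NCD, 84.2% and 97.2% in cold NCD, 27.4% and 96.0% in warm HFD, and 68.8% and 97.4% in cold HFD. In the other start-site regions it was 53.5% and 71.4%, 47.5% and 72.2%, 4.18% and 62.3%, and 26.4% and 71.7% in the same order. Domains were higher in 8 of 8 mice, by 31.6 points on average (82.7% ± 24.5 against 51.1% ± 24.6, SD, n = 8). An exact two-sided sign-flip test over the mice gave p = 0.00781, the smallest value that 8 mice allow, and 0.0234 after Benjamini-Hochberg adjustment over 3 marks. Without mice 7 and 10 the difference was 31.1 points. Against the next 500 regions by width, which are wide themselves, it was 6.08 points in 8 of 8 mice, again with an exact p = 0.00781.

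**Figure D4:**
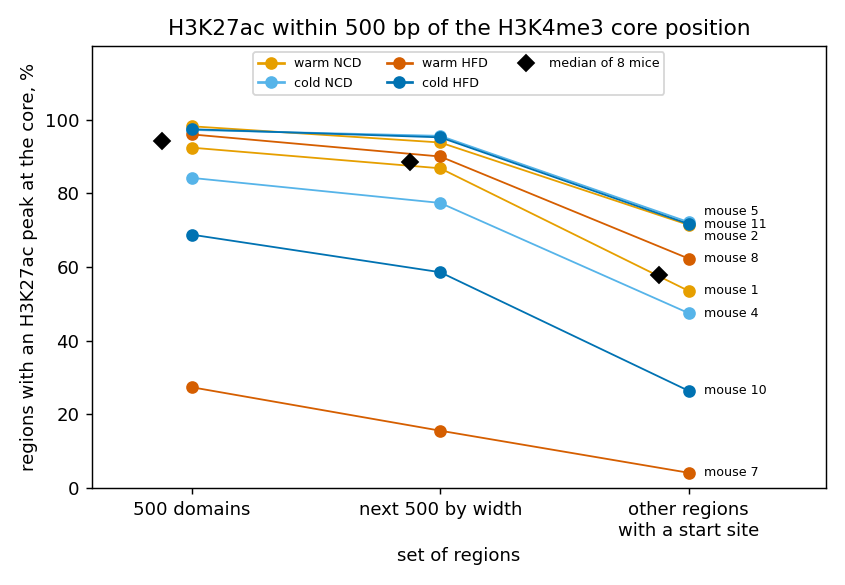
Share of regions with an H3K27ac peak within 500 bp of the core position (%), for the 500 domains, the next 500 by width and the other start-site regions; each line is 1 mouse coloured by condition and diamonds are medians of the 8 mice. All 8 lines fall from left to right, including mouse 7, which starts at 27.4%.

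H3K27ac was at the core in 7 or 8 mice in 339 domains (67.8%), against 23.3% of the other start-site regions. Over the whole domain, H3K27ac peaks covered a median of 51.6% and 76.3% of the length in mice 1 and 2, 60.9% and 76.7% in mice 4 and 5, 0.0% and 73.0% in mice 7 and 8, and 31.9% and 83.9% in mice 10 and 11. No domain among the 20 broadest lacked it: the cores of Irs1 and Zfp503 had it in 5 mice and that of Lipe in all 8. Elovl3 had a core peak in 3 mice, and some named genes, given below, had one in none. The few H3K27ac peaks of mouse 7 fell often in domains, 401 of 3207 (12.5%), against 2.60% to 7.03% in the other mice. Among the 1000 strongest peaks of each mouse the share was 13.5% to 19.2%, and mouse 7 with 15.6% lay within that range.

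3 domains had no H3K27ac peak in any mouse. They lay at Cyp26b1, which degrades retinoic acid, at Pcdh17, a protocadherin of cell adhesion, and at a site without a start site 1163 bp from Tchh, a structural protein of hair follicles (chr3:93443493-93447960). The cores of Pcdh7 and Egr1 also lacked it in all mice, although 1 and 2 mice had a peak elsewhere in the domain. H3K27me3 was met in 17 domains (3.40%), against 4.42% of the other start-site regions, and never in more than 2 mice, so the median cover was 0 throughout. By the highest mouse the largest cover was at the Tchh site (61.2% of the domain) and at Pcdh17 (34.1%), followed by Irx5 with Crnde (18.8%), Mycn (16.8%) and Ccnd2 (16.4%). The first 2 of these are among the 3 domains without H3K27ac. At the core, H3K27me3 was found in 0.200% ± 0.490 of domains and 0.415% ± 1.00 of the other regions (SD, n = 8, exact sign-flip p = 0.281 after adjustment).

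H3K4me1 was scarce at the core of the domains and more frequent over their whole length and beside them. At the core it was present in 3.40%, 0.400%, 2.80%, 0.400% and 0.200% of the domains in mice 2, 4, 5, 8 and 11, and in none in mice 1, 7 and 10. The other start-site regions had 7.09%, 2.08%, 8.23%, 2.21% and 0.814% in those 5 mice. The mean difference was -1.66 points, lower in 6 of 8 mice and equal in the other 2 (exact sign-flip p = 0.0312, adjusted 0.0469, the smallest p that 6 unequal mice allow). It stayed between -1.89 and -1.12 points when each mouse was left out, and with 5 unequal mice the smallest exact p is 0.0625, so that no such set without one of the 6 could pass. In the next 500 regions the mean was 0.900%, as in the domains. Over the whole region, where length enters, the direction was the opposite: 23.1% of the domains against 10.2% of the other regions held an H3K4me1 peak on average, 12.9 points more (exact sign-flip p = 0.0312, adjusted 0.0469), and 359 domains (71.8%) against 44.0% held one in any mouse. Within 2000 bp outside the edges, a measure added after the data had been seen, H3K4me1 stood beside 45.8%, 28.2%, 53.4%, 35.8% and 21.2% of the domains in mice 2, 4, 5, 8 and 11, against 17.5%, 9.90%, 23.5%, 18.6% and 7.60% of the other regions. The difference was 13.5 points over all mice (exact sign-flip p = 0.0312), and 4.00 points against the next 500 (p = 0.0625, exact). The mean share of domain cores with H3K27ac was 81.8 points above that with H3K4me1, a description only, since the H3K4me1 lists of mice 1, 7 and 10 held almost no peaks.

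The question of temperature and diet was asked on relative width, the log2 of the covered bases plus 100 bp. From it the median of the same list over the 14290 remaining regions was subtracted. The median over domains was 1.59 and 1.61 in warm NCD, 1.64 and 1.63 in cold NCD, 1.99 and 1.66 in warm HFD, and 1.77 and 1.66 in cold HFD. All 4 HFD mice were above all 4 NCD mice, by 0.15 on average, with an exact permutation p = 0.0286, the smallest that 4 against 4 mice allow, and 0.0857 after adjustment over 3 comparisons. The result did not pass the test, and without mice 7 and 10 the difference was 0.05. Without the subtraction of the median it was -0.19. For temperature (cold minus warm) it was -0.03, with exact permutation p = 0.914, and for the interaction 0.15, with p = 0.514. The interaction value here is the cold minus warm difference on NCD minus that on HFD. H3K27ac cover of the domains did not pass either: 63.4% in cold against 50.2% in warm mice and 47.2% in HFD against 66.4% in NCD mice (exact permutation adjusted p = 0.571 for both), and without mice 7 and 10 the HFD mean was the higher one, by 12.1 points.

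Single domains were tested with limma over all 14790 regions. With HFD 1 domain was wider at an adjusted p under 0.05, among 3 regions in all, which is 0.0203% of the regions tested, and none was narrower. At an unadjusted p under 0.05 there were 146 domains (29.2%) and 2895 of all regions (19.6%). The called domain lies at Snrk, a kinase related to AMPK, with 4632418H02Rik and Gm47122 (chr9:122117244-122129239). It covered 3913, 4853, 2650 and 3860 bp in the NCD mice 1, 2, 4 and 5, and 5319, 11276, 7166 and 11931 bp in the HFD mice 7, 8, 10 and 11. The groups did not overlap, and even mouse 7 was above every NCD mouse. The fitted difference was 1.49 ± 0.15 on the log2 scale (SE, limma adjusted p = 0.0385). Leaving out any mouse kept the difference between 1.41 and 1.58, but only without mouse 8 did the domain stay called (limma adjusted p = 0.0449); without any other mouse the adjusted p was 0.0590 to 0.247. Without both mice 7 and 10 it was called, at 1.50 (limma adjusted p = 0.0479).

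The domains named next did not pass in the fit described and are given as values. They were picked from those whose diet groups do not overlap in relative width, not by order of p. Others of that kind were called with array quality weights. Among them were Hadha with Hadhb, Pde4d and Picalm (wider with HFD), and Ntrk3 and Anks1 (narrower). Gpam, which starts triglyceride synthesis, had 6617, 5598, 3343 and 4710 bp in NCD and 4528, 11114, 7858 and 12184 bp in HFD mice (1.08 ± 0.15 on the log2 scale after scaling, limma adjusted p = 0.0857); it was called without mice 7 and 10 (limma adjusted p = 0.0485) and with array quality weights (0.0277). The second, intragenic domain of Acsl1 (chr8:46486745-46498255) had 4742, 2586, 2395 and 3425 bp in NCD and 3061, 7660, 6448 and 11511 bp in HFD mice (1.33 ± 0.21, limma adjusted p = 0.112). In both, mouse 7 lay among the NCD mice in covered bases and above them after scaling. Both Cd36 domains had positive values (1.12 ± 0.27 and 1.32 ± 0.27, limma adjusted p = 0.212 and 0.189). The Cd36 domain at rank 83 was called with a pseudocount of 1000 bp (limma adjusted p = 0.0476). At rank 67 Cd36 covered 3693, 5605, 2450 and 4446 bp in NCD and 5943, 6988, 6738 and 7636 bp in HFD mice without overlap. Ppargc1a also did not overlap, with 3830, 3649, 2161 and 2688 bp against 4122, 5156, 4586 and 5617 bp (1.00 ± 0.19, limma adjusted p = 0.182), and was called with array quality weights, a pseudocount of 1000 bp and quantile normalization (limma adjusted p = 0.0264, 0.0255 and 0.0410). In the opposite direction stood Fasn, fatty acid synthase, with 8117, 7992, 7490 and 6785 bp in NCD and 2519, 4463, 1419 and 4264 bp in HFD mice (-1.04 ± 0.29, limma adjusted p = 0.231). Fasn was called with array quality weights (limma adjusted p = 0.0480). The domain of Klhdc7a with Mir2139, named after its values were seen, had 5077, 5218, 5057 and 5217 bp in NCD and 1871, 2797, 1990 and 3679 bp in HFD mice without overlap. Its difference of -0.69 ± 0.19 did not pass (limma adjusted p = 0.231), but it was called without mice 7 and 10 (-0.78, limma adjusted p = 0.0479) and under the same 3 alternatives as Ppargc1a (limma adjusted p = 0.0146 to 0.0392).

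In relative width all HFD mice were above all NCD mice in 63 domains (12.6%, against 7.28% of all regions) and below in 23 (4.60%, against 6.81%). Without mice 7 and 10, where smaller groups separate more easily, these were 98 (19.6%, against 12.2%) and 58 (11.6%, against 13.5%). By list, the fitted diet difference was positive in 14 of 16 domains of lipid storage, with a median of 0.27, in 5 of 5 thermogenic domains (0.47), in 3 of 3 of the respiratory chain (0.63), in 3 of 6 of lipogenesis (-0.11), in 1 of 6 of insulin signalling (-0.24) and in 10 of 18 of the transcription factors (0.06). It was positive in 60.4% of all domains (median 0.09) and in 48.5% of all regions (-0.02). Among endothelial domains it was positive in 1 of 6 (-0.46). Families with few domains had positive values as well, in 70 of 78 regions of cytosolic (0.32) and 70 of 77 of mitochondrial ribosomal protein genes (0.35). None of these list members passed the test. Mouse 7 stood apart in some of these lists. With each list of peaks centred on its median over all 14790 regions, its median relative width was 2.54 in the lipid storage domains, against 1.72 to 2.02 in the others. In the respiratory chain domains it was 2.43, against 0.92 to 1.63. Without mice 7 and 10 the diet median was 0.06 for lipid storage (11 of 16 positive), 0.19 for thermogenic domains (5 of 5), 0.29 for the respiratory chain (3 of 3), -0.29 for lipogenesis (1 of 6), -0.10 for insulin signalling (2 of 6), 0.08 for the transcription factors (10 of 18) and 0.01 for endothelial domains (3 of 6). It was then positive in 51.6% of all domains (0.02).

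Temperature gave no call among domains or regions (0.0%) with limma, while 63 domains (12.6%) and 1411 of all regions (9.54%) had an unadjusted p under 0.05. Without mice 7 and 10 it gave 62 regions, none of them a domain, with 137 domains (27.4%) and 3600 of all regions (24.3%) at an unadjusted p under 0.05. The 3 smallest p-values belonged to the Acaca site, Eng and Prkar2b, all with an adjusted p of 0.519. The Acaca site had 8966, 8669, 6843 and 8240 bp in the warm mice 1, 2, 7 and 8, and 2329, 4177, 2137 and 4899 bp in the cold mice 4, 5, 10 and 11, a fitted difference of -1.52 ± 0.27. The groups did not overlap, and mouse 7 was with the warm mice. Eng had 2322, 2867, 2344 and 4967 bp in the warm and 4650, 5344, 7085 and 8599 bp in the cold (0.86 ± 0.16). Prkar2b, a regulatory subunit of protein kinase A, had 6309, 6407, 4101 and 8303 bp in the warm and 2573, 3219, 4438 and 8298 bp in the cold (-0.72 ± 0.14). For diet, Eng was called as wider with HFD with a pseudocount of 1000 bp (limma adjusted p = 0.0429). So was Prkar2b with array quality weights (limma adjusted p = 0.0307).

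Cold mice were all above warm mice in relative width in 15 domains (3.00%, against 3.12% of regions), and all below in 15 (3.00%, against 2.04%). Without mice 7 and 10 these were 46 (9.20%, against 10.2%) and 49 (9.80%, against 9.28%). The 6 endothelial domains all had positive temperature values with a median of 0.83, and over the whole list 14 of 18 regions did (0.74), against a median of -0.03 over all regions. The summed cover of the 6 was 25602, 28364, 4456 and 24829 bp in the warm mice 1, 2, 7 and 8 and 29298, 29103, 29736 and 38363 bp in the cold mice. Mouse 7 was far below the other warm mice here and had no peak in 8 of the 18 regions. Without mice 7 and 10 the median was 0.31 in the domains (5 of 6 positive) and 0.17 over the list (11 of 18). The 6 lipogenic domains all had negative values (median -0.26), and 5 of 6 without mice 7 and 10 (-0.12). Positive values were found in 48.4% of all domains and 46.5% of all regions. Respiratory chain domains were positive in 0 of 3 (-0.45) and lipid storage domains in 4 of 16 (-0.12). Without mice 7 and 10 these were 0 of 3 (-0.34) and 8 of 16 (0.02). Immediate early domains went the other way, with 9 of 12 positive, and 5 of 12 without mice 7 and 10. No interaction of temperature and diet was called in domains or regions (limma, smallest adjusted p 0.920, with 13 domains or 2.6% and 345 of all regions or 2.33% at an unadjusted p under 0.05). The 3 smallest p-values were at Cd47 (1.27 ± 0.30), Spaar with Hrct1 (2.21 ± 0.61) and the Tns1 site at rank 151 (0.77 ± 0.24), on the log2 scale. In limma the interaction is the cold minus warm difference on HFD minus that on NCD. Its sign is therefore the reverse of the interaction of relative width given above.

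**Figure D5:**
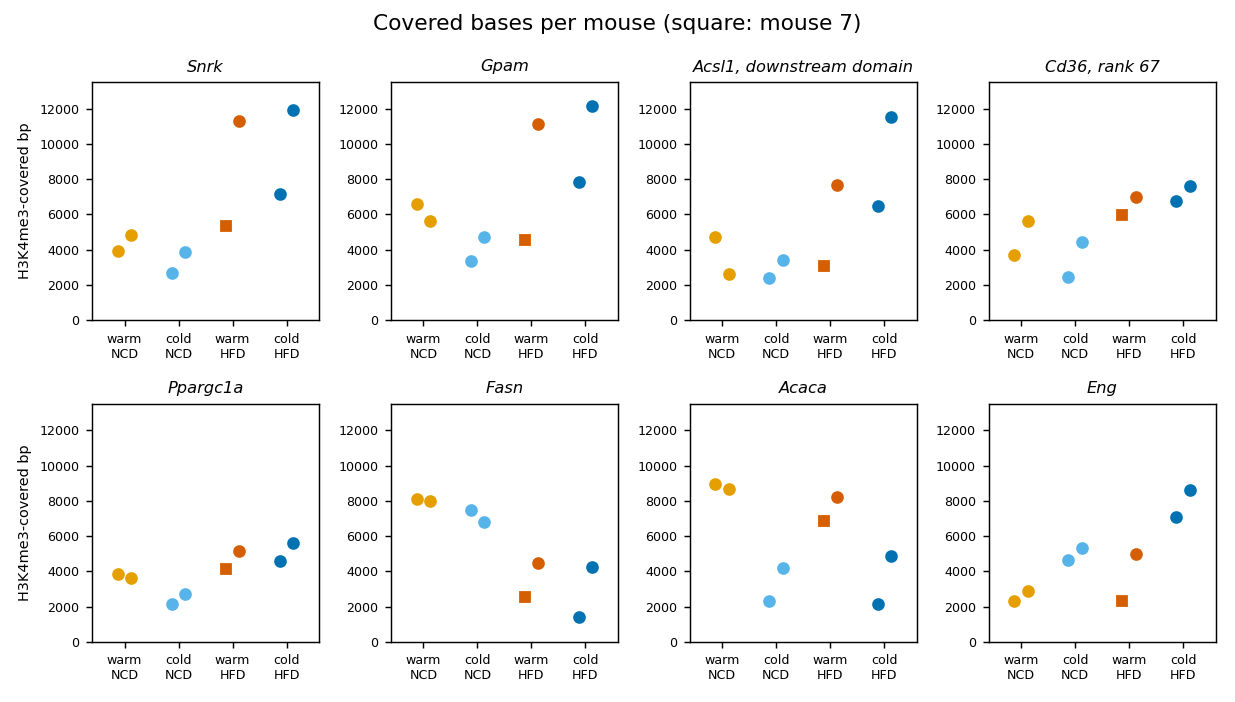
H3K4me3-covered bp per mouse in 8 named domains, by condition, with mouse 7 as a square. Snrk, the domain called for diet, has 2650 to 4853 bp in NCD and 5319 to 11931 bp in HFD mice, while the Acaca site falls from 6843 to 8966 bp in warm to 2137 to 4899 bp in cold mice without passing the test.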

How the data were processed

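ChIP-Seq peak lists of 4 histone marks from the same 8 mice were used, 2 mice per condition. Per the methods, the authors trimmed reads with cutadapt, mapped them to GRCm38 with Bowtie2 and called peaks with MACS2 against the input. No source used here states versions or calling thresholds, and the submitters' notes also name deepTools. The deposited tables hold a fold enrichment (ratio), p- and q-values as −log10, and a summit offset. Positions, summits, p and q entered here, with p as the measure of the strongest summit or peak. The methods can be read as pooling tissue of 2 mice in each experiment; each numbered mouse was counted as 1 replicate. With no read counts, depth is unknown.

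Regions were merged, counted and annotated with GENCODE M21 basic transcripts in Python 3.11.15 (pandas 2.3.3). A core is the median summit with 500 bp on either side. Mark shares were tested by exact sign flips over mice, arms by exact permutations, and widths per region by limma 3.58.1 with trend on log2(bp + 100), centred per list, over 14790 regions with Benjamini-Hochberg adjustment. In limma, temperature and diet were fitted together as additive terms over all 4 conditions, and the interaction in a separate fit that added it. The scripts were tested on simulated data. A sign-flip test of the downstream share was planned, but the same peaks chose the domains, so the values stand without a p. Named domains are the 20 broadest, members of fixed gene lists, study genes, called domains or the 3 smallest p, those at the limit, and those extreme in H3K27ac or H3K27me3. Domains with groups that do not overlap were picked out after their values were seen. Members and lists were chosen with earlier results of these data known. Alternatives covered the core window, the comparison set, q, pseudocount, scaling and leaving out mice. Replicate numbers name mice, which pair marks within a mouse by design and differ between conditions. Some members of the gene lists are not reported here.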

Additional observations from a re-analysis of the deposited data

Results flagged for a closer look

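Of 35 sets of mice examined for a value far from the others, 6 had one, where about 1.75 are expected by chance at 1 in 20. Mouse 7 had a relative width of the domains of 1.99 on the log2 scale, against 1.59 to 1.77 in the other mice. Among warm mice its median covered length of 2207 bp was far below the 4200.5 to 4550 bp of the others.

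For H3K27me3 at the core, mouse 5 had a difference between domains and other start-site regions of -1.47 points, apart both from all mice and from the other NCD mice. Mouse 11 was apart among HFD mice with -0.411 points. Mouse 7 with 0.0 was apart among warm mice only because the other 3 shared the value -0.00875.

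Chromosome X, which the choice of domains leaves out, had 3 regions at or over 3409.5 bp among 466 recurrent ones (0.644%). The widest, at Efnb1, a ligand of Eph receptors, had a median of 5216 bp.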

How the results depend on the processing

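Of 175 recomputed values 132 kept their direction and their side of the threshold or stayed close, 25 no longer passed the threshold, 2 newly passed it, 11 turned direction and 5 counts moved by over 1.5 times. The H3K27ac difference at the core was 30.0 to 32.8 points when each mouse was left out in turn, and the downstream share 8.44 to 9.28 points. The marks of a mouse form a pairing by design, and with the replicate block the 81.8 points between H3K27ac and H3K4me1 had an exact sign-flip p of 0.00781. That contrast stays a description, since the H3K4me1 lists of mice 1, 7 and 10 held almost no peaks. H3K4me1 at the core turned to 12.9 points higher when the whole region was used and was 0.0 against the next 500, and it was -1.89 to -1.12 points without single mice, where 6 of 8 sets could not reach the threshold. H3K27me3 was 0.05 points higher than in the next 500. H3K4me1 beside the domains was 4.00 points against the next 500, 21.5 points without mice 1, 7 and 10, and 11.2 to 15.4 points without single mice, past the threshold only without mouse 7 or 10. The relative width by temperature turned to 0.16 without centring, 0.036 with a pseudocount of 1000 bp, 0.058 without mouse 7 (range -0.076 to 0.058) and 0.028 without mice 7 and 10. At a −log10 q of at least 5 it was -0.51 by temperature, 0.65 by diet and 1.11 for the interaction. By diet it turned to -0.19 without centring and was 0.027 with a pseudocount of 1000 bp, 0.080 without mouse 7 and 0.045 without mice 7 and 10. The interaction of relative width, taken as NCD minus HFD, turned to -0.70 without centring and -0.10 with a pseudocount of 1000 bp. H3K27ac cover turned to -3.60 points for temperature without mouse 7 (range -3.60 to 23.6) and to 12.1 points for diet without mice 7 and 10. The number of domains called for diet was 0 without centring, with a pseudocount of 10 bp and with a −log10 q of at least 5; it was 4 with quantile normalization, 5 with a pseudocount of 1000 bp, 14 with array quality weights, 3 without mice 7 and 10, and 0 to 5 without single mice. The Snrk domain was among those called in each of these settings that called any. For temperature, array quality weights gave 104 domains (20.8%) and 2382 of all regions (16.1%). For the interaction, leaving out mice 1 by 1 gave 0 to 147, the highest without mouse 8 (29.4%, beside 4810 of all regions or 32.5%), when mouse 7 alone stood for warm HFD and was assumed to vary like the rest. The causes were not tested. No read depth is known, and mice 7 and 10 limit what can be said of absent peaks.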
